A study of Homo sapiens with 78 samples.

Results

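The genes described here are 10 transcription factors of the T lineage and of T cell leukaemia, namely TCF7, LEF1, GATA3, TAL1, RUNX1, RUNX3, MYB, BCL11B, TOX and ETS1. They were chosen by name, out of 58388 genes in the tables. The rule used no measured value, but earlier results of these data were known when the genes were chosen. Each gene's values were the sums over its annotated Ensembl transcripts in each well. Single cells were sorted by FACS from 2 human lines, Jurkat (clone E6-1, from a T cell acute lymphoblastic leukaemia) and A375 (from a melanoma). Each cell was made into a sequencing library with 1 of 2 stranded kits, #634413 for total RNA at pico input, and #634444, a SMART-Seq Stranded kit. There were 18 Jurkat and 21 A375 wells for each kit. The labels name no treatment of either line.

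The lines differed in more than their tissue of origin. A375 cells grew in DMEM, were gated on CD47 and sorted into PBS, whereas Jurkat cells grew in RPMI, were gated on CD81 and sorted into a lysis solution. Line, medium, gate and collection buffer therefore cannot be told apart. Each line is a single culture as far as the labels say, so each counted as 1 sample and no test was made between lines. Intervals given below are 95% intervals that cover counting error only, and SD is the spread over single wells.

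T cell identity is set by a small set of DNA-binding proteins that act in turn in the thymus. TCF7 and LEF1 are the HMG-box factors through which Wnt and Notch signals reach T cell genes, and GATA3, RUNX1, MYB, ETS1 and BCL11B act with them to commit a progenitor to the lineage. TAL1 is a bHLH factor of blood stem and red cells that is normally silenced in the thymus, and its abnormal activation there, often together with RUNX1, GATA3 and MYB as cofactors on the same enhancers, defines a large class of T cell leukaemia.

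The labels were checked against marker genes. The 10 T cell markers (CD3D, CD3E, CD3G, CD247, CD2, CD28, LCK, ZAP70, LAT and PTPRC) summed to 617 to 2700 counts in Jurkat wells with kit #634413 and to 634 to 4318 with #634444, against at most 31 and 42 in A375 wells. CD3D, CD3E and CD2 had 0 counts in every A375 well. The 10 melanoma markers reached 1327 and 1345 counts in A375 wells, and at most 45 and 14 in Jurkat wells. Among them SOX10, the neural crest factor, stood at 289 and 287 CPM, the counts in 1000000 of the total, in A375, while the pigment genes MLANA, PMEL, TYR, DCT and TYRP1 were between 0 and 3.97 CPM. Total estimated counts per well ran from 909 to 2567265 with a median of 813697. All Jurkat wells had at least 413959 counts. In A375, 4 wells with #634413 and 5 with #634444 lay under 203424 counts, which is 25% of the median, and 3 deeper A375 wells had less than 50% of their counts on protein coding genes. Deep wells below are those at or above that limit.

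Several members are read from more than 1 start, which changes the first coding bases. Those of RUNX1 and RUNX3 are shown first because both genes use a distal and a proximal start, and the results below turn on which start carried the counts. The first 120 coding bases are printed 5′ to 3′ from the GENCODE v44 transcripts on GRCh38. Capitals mark the bases that only that start provides, and the lower case bases belong to the part shared by both.
RUNX1-201, distal: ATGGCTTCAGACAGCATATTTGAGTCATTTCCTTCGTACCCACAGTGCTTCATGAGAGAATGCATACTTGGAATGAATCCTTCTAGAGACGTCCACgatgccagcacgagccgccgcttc
RUNX1-202, proximal: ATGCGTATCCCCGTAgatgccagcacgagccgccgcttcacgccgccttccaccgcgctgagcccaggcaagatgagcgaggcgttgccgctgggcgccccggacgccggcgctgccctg
RUNX3-202, distal: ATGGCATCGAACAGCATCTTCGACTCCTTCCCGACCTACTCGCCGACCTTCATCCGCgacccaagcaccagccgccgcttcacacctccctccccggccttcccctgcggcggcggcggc
RUNX3-201, proximal: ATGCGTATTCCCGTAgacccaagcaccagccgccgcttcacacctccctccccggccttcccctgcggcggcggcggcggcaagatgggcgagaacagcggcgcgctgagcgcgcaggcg
The distal start gave RUNX1 96 coding bases of its own and RUNX3 57, while the proximal start gave each gene 15. The remaining 1344 coding bases of RUNX1 and 1230 of RUNX3 were common to both of that gene's starts. Between the genes, the proximal starts matched at 47 of the first 60 coding bases (78.3%), and the distal starts at 38 of the first 57 (66.7%).

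For TCF7 and ETS1 the first 60 coding bases are shown, again from GENCODE v44 on GRCh38, with the start codon in capitals. These genes carry their counts on transcripts that open at different codons.
TCF7-201, full length: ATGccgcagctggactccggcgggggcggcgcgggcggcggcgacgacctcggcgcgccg
TCF7-203, inner start: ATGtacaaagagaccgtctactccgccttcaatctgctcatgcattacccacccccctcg
ETS1-202, distal start: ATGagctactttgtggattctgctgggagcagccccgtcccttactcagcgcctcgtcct
ETS1-201, ETS1-204 and ETS1-208, proximal start: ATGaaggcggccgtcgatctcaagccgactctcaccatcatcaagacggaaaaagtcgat
The coding sequence of TCF7-203 (269 codons) begins at base 346 of that of TCF7-201 (384 codons), in the same frame. The short form lacks the N-terminal stretch by which TCF7 binds beta-catenin, as is known for this gene. The full length start of LEF1 opens with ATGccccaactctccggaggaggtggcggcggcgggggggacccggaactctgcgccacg, which matched TCF7-201 at 38 of 60 bases (63.3%).

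The first comparison asked which of the factors were higher in the leukaemia line. Pooled CPM is a gene's estimated counts summed over the wells of a group, set to 1000000 estimated counts of those wells in all. With both kits 9 of 10 members were at least 4-fold higher in Jurkat, all but RUNX3. Among all genes with at least 50 counts in 1 of the lines, 13.1% of 15922 passed the same limit with #634413 and 9.74% of 14868 with #634444. No member was at least 4-fold higher in A375, where 24.0% and 21.1% of genes were. As the members were chosen with earlier results of these data known, the contrast with all genes is a description only. The median log2 ratio of Jurkat to A375 was 5.83 and 6.58 over the members, against -0.16 over all genes with either kit. In 6 of 10 members (TCF7, LEF1, TAL1, MYB, BCL11B and TOX) the lowest Jurkat well lay above the highest deep A375 well with both kits, which held for 0.371% and 0.868% of genes. With #634413 that lowest well held only 1 count of BCL11B and, for TAL1, 3 counts, so there the separation rests on few counts.

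**Figure D1:**
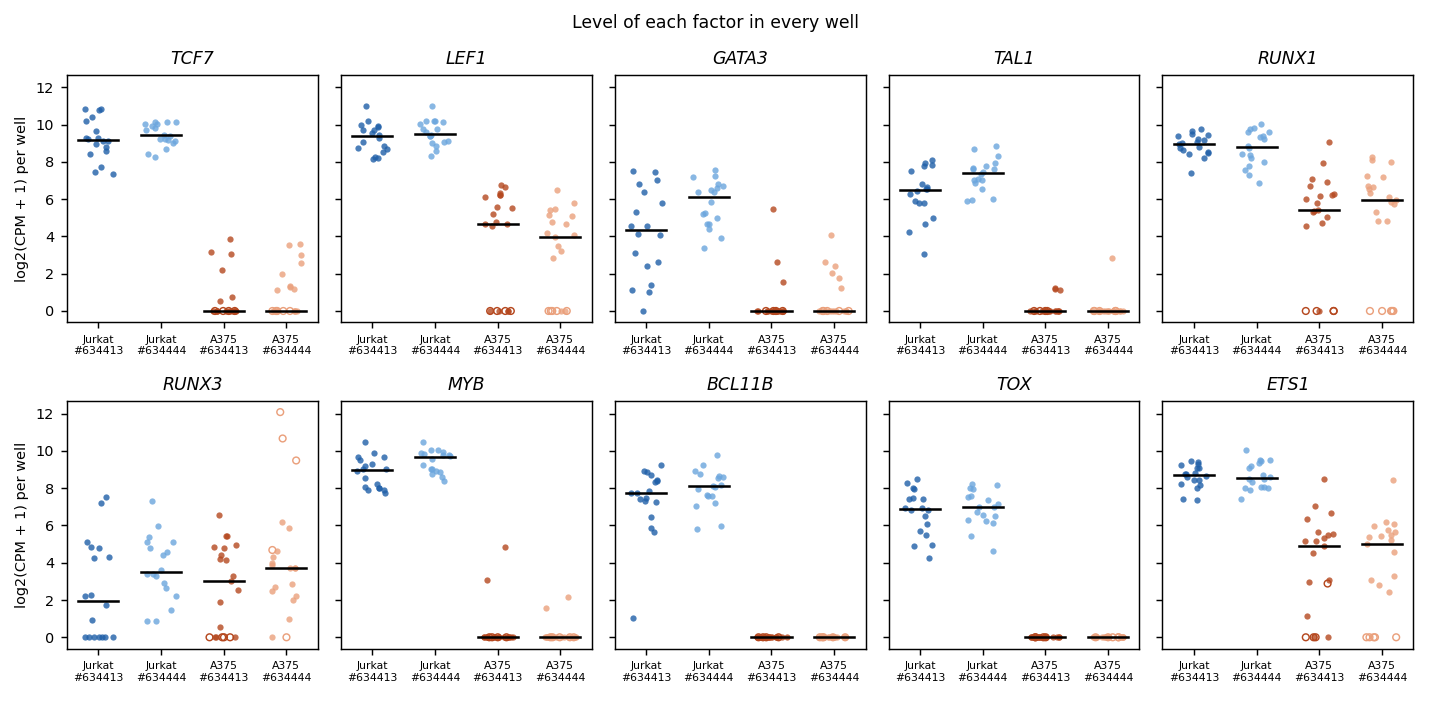
Level of each factor in every well, by line and kit. The y axis is log2(CPM + 1), points are wells, open circles are wells under the depth limit of 203424 counts and bars are medians. The Jurkat and deep A375 wells do not overlap for 6 of the 10 genes, while those of RUNX3 lie across the same range.

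The HMG-box pair TCF7 and LEF1 was high in every Jurkat well. TCF7, which opens the T cell programme downstream of Notch (chr5:134114681-134151865, plus strand), ran from 162 CPM through a median of 574 to 1862 over Jurkat wells with #634413, and from 306 through 688 to 1139 with #634444. Its highest A375 well had 13.4 CPM with #634413 and 11 with #634444. Every Jurkat well thus stood more than 10-fold above the highest A375 well. Pooled, TCF7 was 742 CPM (729 to 754) against 2.98 with #634413, a ratio of 249 (191 to 331), and 758 (744 to 773) against 2.77 with #634444, a ratio of 274 (202 to 382). Much of the A375 count came from 1 well, replicate 17 with #634413, which held 61.1% of it and 0 counts of the T cell markers, and without which the ratio was 553.

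LEF1, the sister gene that acts beside TCF7 in thymocytes (chr4:108047545-108168956, minus strand), was not confined to Jurkat. Its Jurkat wells ran from 281 CPM through 666 to 2021 with #634413, and from 314 through 736 to 2042 with #634444. Its A375 wells ran from 0 through 24.6 to 106, and from 0 through 14.6 to 87.9. The lines did not overlap, yet LEF1 was counted in 13 of 21 A375 wells (61.9%) and in 14 (66.7%). The pooled ratio was 18.3 (16.9 to 19.8) with #634413 and 31.4 (28.5 to 34.8) with #634444.

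TAL1, the leukaemia bHLH factor (chr1:47216290-47232225, minus strand), was present in every Jurkat well. It ran from 7.25 CPM through 87.9 to 275 with #634413, and from 58.3 through 170 to 458 with #634444. In A375 it had 5 counts in 3 wells and 8 counts in 1 well, with highest wells of 1.37 and 6.26 CPM. The pooled levels in Jurkat were 118 (113 to 123) and 183 CPM (176 to 191). The ratio was 428 (183 to 1319) with #634413 and 339 (172 to 787) with #634444. There A375 replicate 8 held all 8 counts, and without it TAL1 was at least 827-fold higher in Jurkat, taking 3 counts over the A375 wells.

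GATA3, a zinc finger factor needed at several steps of T cell development and a partner of TAL1 in leukaemia (chr10:8045378-8075198, plus strand), was low and uneven. Its Jurkat wells ran from 0 CPM through 19.4 to 184 with #634413, and from 9.25 through 69 to 185 with #634444. A375 wells reached 43.3 and 15.7 CPM, so the lines overlapped. The pooled ratio was 15.2 (11.6 to 20.3) and 33.4 (23.5 to 49.1). A single A375 well, replicate 3 with #634413, held 50 of that group's 56 GATA3 counts, and without it the ratio was 133. Without A375 replicate 5 the ratio with #634444 was 53.1. No T cell marker was counted in replicate 3.

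MYB, the oncogene of blood progenitors and another member of the TAL1 regulatory circuit (chr6:135181308-135219173, plus strand), was high in every Jurkat well. It ran from 215 CPM through 503 to 1442 with #634413, and from 338 through 810 to 1452 with #634444. A375 wells reached 27.3 and 3.47 CPM, and only 2 of 21 had any count with either kit. The pooled levels of 549 and 745 CPM stood 178-fold (137 to 235) and 1575-fold (765 to 3922) above A375. These ratios rest on few A375 counts. Without A375 replicate 7 the first was 510, and without replicate 21 the second was 3041.

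BCL11B and TOX were the members with no count in A375. BCL11B, the zinc finger factor that seals commitment to the T lineage (chr14:99169287-99272197, minus strand), ran from 1.07 CPM through 212 to 603 in Jurkat with #634413, and from 56.1 through 274 to 871 with #634444. TOX, an HMG-box factor of CD4 cell development, ran from 18.1 through 118 to 357, and from 23.8 through 128 to 301. The 0 counts over the A375 wells of a kit allow a level of up to 0.166 CPM with #634413 and 0.203 with #634444, taking 3 counts over the group. On that bound BCL11B was at least 1593-fold and 1586-fold higher in Jurkat, and TOX at least 813-fold and 723-fold.

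RUNX1 and ETS1 were shared by the lines at different levels. RUNX1, the core factor of definitive blood formation (chr21:34787801-36004667, minus strand), ran from 171 CPM through 505 to 878 in Jurkat with #634413, and from 116 through 447 to 1054 with #634444. In A375 it ran from 0 through 42.5 to 527, and from 0 through 61.3 to 304. The ranges overlapped with both kits. The pooled ratio was 4.41 (4.21 to 4.63) and 4.66 (4.41 to 4.93), just past the 4-fold limit.

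ETS1, the founding ETS factor and a regulator of T cell receptor genes (chr11:128458761-128587558, minus strand), gave the same picture. Jurkat wells ran from 163 CPM through 414 to 714 with #634413, and from 173 through 376 to 1041 with #634444. A375 wells ran from 0 through 29.1 to 357, and from 0 through 30.6 to 348, so the highest A375 wells lay within the Jurkat range. The pooled ratio was 6.13 (5.77 to 6.51) and 8 (7.43 to 8.62). RUNX1 and ETS1 were each counted in 16 of 21 A375 wells (76.2%) with both kits. Of the 10 T cell markers, 5 and 4 were at 0 in all A375 wells, CD3D, CD3E and CD2 with both kits, while PTPRC was counted in 6 and 10 of the 21 and CD3G in 4 and 6. The part of these counts in the A375 levels was not tested.

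RUNX3, the RUNX factor of CD8 T cells and NK cells (chr1:24899511-24965121, minus strand), was the exception. Its Jurkat wells ran from 0 CPM through 2.96 to 187 with #634413, and from 0.83 through 10.3 to 160 with #634444. Deep A375 wells reached 93.5 and 71.1 CPM. The medians over A375 wells, 7.13 and 12.4 CPM, were above those over Jurkat wells with both kits, whereas the pooled ratio of Jurkat to A375 was 1.68 (1.46 to 1.93) and 1.23 (1.06 to 1.44). A single Jurkat well, replicate 7 with #634413, held 45.4% of that group's RUNX3 counts. Without it the ratio was 0.989, and without Jurkat replicate 5 the ratio with #634444 was 0.884, so the direction rested on single wells. In A375 with #634444, 4 shallow wells of 1230, 1395, 1613 and 80958 total counts held 2, 1, 7 and 2 RUNX3 counts, and in these a handful of counts becomes up to 4340 CPM.

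**Figure D2:**
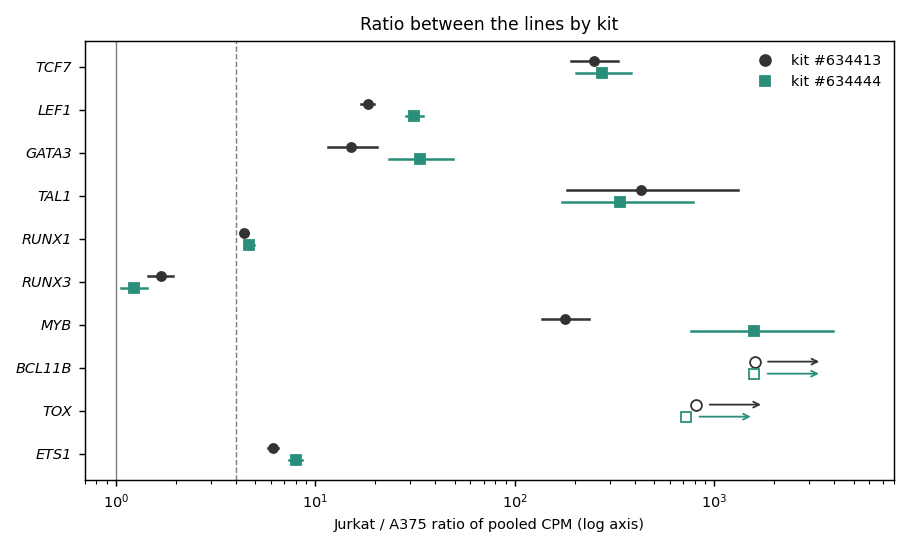
Ratio of pooled CPM, Jurkat over A375, for each factor and kit on a log axis. Lines are 95% counting intervals, open markers with arrows are lower bounds for BCL11B and TOX, which had 0 counts in A375, and the dashed line marks 4-fold. RUNX3 alone lies under that line with both kits.

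Levels were compared between genes only in TPM, the deposited transcript unit that allows for length. Over Jurkat wells with #634413, mean TPM (SD, n = 18) was 475 ± 412 for TCF7, 379 ± 270 for LEF1, 193 ± 130 for MYB, 147 ± 95.1 for RUNX1 and 77.2 ± 30.7 for ETS1. A lower set followed, with BCL11B at 30.6 ± 23.2, TAL1 at 20.7 ± 18.9, TOX at 19.6 ± 14.2, RUNX3 at 14.2 ± 34.1 and GATA3 at 13.4 ± 16.2 TPM. With #634444 the order was the same except that GATA3, at 23.3 ± 13.5, came before TOX at 21 ± 12.4. The gap between ETS1 and BCL11B was larger than both genes' SDs with both kits. That between LEF1 and MYB was larger only with #634444, where they stood at 394 ± 183 and 199 ± 93.1. All other neighbours differed by less than the larger of their SDs, though LEF1 and MYB and RUNX1 and ETS1 with #634413, and MYB and RUNX1 with #634444, differed by more than the smaller. In deep A375 wells LEF1 led with #634413 at 42.9 ± 36.5 TPM (n = 17) and RUNX1 with #634444 at 34.6 ± 29.3 (n = 16).

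The kits gave similar pooled levels in Jurkat for most factors. The ratio of #634444 to #634413 lay between 0.862 for RUNX3 and 1.55 (1.47 to 1.64) for TAL1, with GATA3 at 1.54 (1.4 to 1.69), MYB at 1.36 and TCF7 at 1.02. Over 13187 genes in Jurkat the middle range (quartiles) of the log2 kit ratio was -0.51 to 0.46 around a median of -0.01. TAL1, at 0.63, and GATA3, at 0.62, lay above that upper quartile and the other 8 members lay within the range.

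The share of single cells with each factor was taken as the share of wells with at least 1 count. All 10 factors were counted in all 18 Jurkat wells with #634444 (100%, exact Clopper-Pearson interval 81.5 to 100 for each). With #634413 this held for 8 factors, while GATA3 was counted in 17 wells (94.4%, 72.7 to 99.9) and RUNX3 in 11 (61.1%, 35.7 to 82.7). A Jurkat well thus held 8 to 10 of the factors with #634413, all 10 in 11 wells. In A375 the median was 4 factors a well with either kit, with a range of 0 to 7.

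Single A375 wells differed in which factors they held. TCF7 was counted in 6 of 21 wells (28.6%, 11.3 to 52.2) with #634413 and 9 (42.9%, 21.8 to 66) with #634444, GATA3 in 3 and 6, TAL1 in 3 and 1, and MYB in 2 and 2. RUNX3 was counted in 14 (66.7%) and 19 (90.5%), of which 4 with #634444 were the shallow wells named above. In deep A375 wells with that kit it was in 15 of 16, and RUNX1 and ETS1 in all 16. BCL11B and TOX were counted in 0 of 21 with each kit, which allows a share of wells with a count of up to 16.1% by the same exact interval. When each well was thinned to 203424 counts and shallower wells were left out, RUNX3 remained in 9 and 16 of 18 Jurkat wells and in 13 of 17 and 11 of 16 A375 wells. RUNX1 remained in 16 and 16 of these A375 wells, ETS1 in 14 and 16 and LEF1 in 13 and 13. GATA3 fell to 13 of 18 Jurkat wells with #634413 and stayed at 18 with #634444. TCF7 was left in 4 A375 wells with each kit.

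Spread between Jurkat cells differed by gene. The coefficient of variation (SD over mean of CPM, 18 wells) was lowest for RUNX1 at 0.37 and ETS1 at 0.38 with #634413, and for TCF7 at 0.38 and MYB at 0.40 with #634444. It was highest for RUNX3, at 2.03 and 1.47, and GATA3, at 1.26 and 0.73. Both had wells with few or no counts, where counting error is part of the spread. TCF7 moved from 0.73 with #634413 to 0.38 with #634444.

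Pairs of factors were compared across Jurkat wells as Spearman's rho of log2 CPM after adding 1, over 18 wells a kit, as a description, since wells of a kit share a culture and a kit. Over 45 pairs rho ran from -0.46 to 0.59 with a median of 0.12 for #634413, and from -0.30 to 0.75 with a median of 0.32 for #634444. It was above 0.5 for 1 pair (GATA3 with MYB, 0.59) and for 13 pairs, and for 0 pairs with both kits. The sign was the same with both kits in 23 of 45. TAL1 with ETS1, the pair at the top with #634444 (0.75), stood at -0.42 with #634413, and LEF1 with TOX went from 0.11 to 0.73. TAL1 with RUNX1 was positive with both, at 0.27 and 0.66. The total count of a well also moved with some factors, at rho of 0.58 for TAL1 and -0.49 for LEF1 with #634413, but -0.18 and 0.10 with #634444, and its part in the pairs was not tested.

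**Figure D3:**
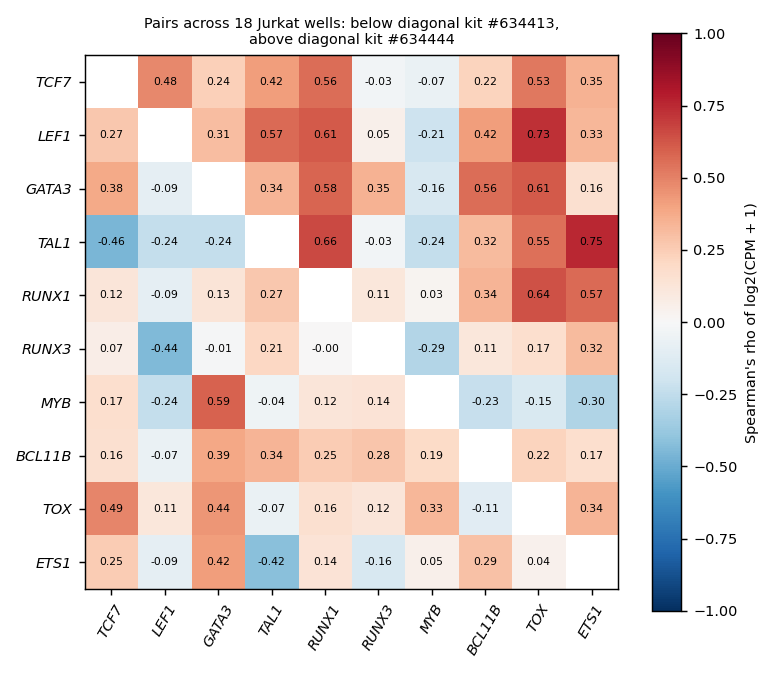
Spearman's rho of log2 CPM between each pair of factors over the 18 Jurkat wells of a kit, #634413 below the diagonal and #634444 above it. Blue is negative and red positive. Values above 0.5 number 1 below the diagonal and 13 above it, and no pair passes that value in both.

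Transcript use was read from the estimated counts of single transcripts, which Kallisto shares out between transcripts with common exons. A share of a few percent, or a well with few counts, is therefore less certain than its counting interval. Shares of counts weigh long transcripts more, whereas TPM allows for length, and where they give another order both are given. Transcripts were grouped by first coding base. For TCF7 in Jurkat, the full length start (chromosome 5, base 134114907, TCF7-201 and TCF7-204) took 30% of counts (29.2 to 30.8) with #634413 and 43% (42.1 to 44) with #634444. The inner start at 134115938, used by 10 transcripts and printed above for TCF7-203, took 43.2% and 34.7%. By counts both forms were thus abundant. Incomplete models with no annotated start, TCF7-207 chief among them, took 21.1% and 17.3%, and cannot be placed on either form. By TPM these models led with 50.3% and 45.6%, ahead of the inner start at 35.5% and 35.8% and the full length start at 10.3% and 14.9%.

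Cells differed widely in this balance. The full length share ran from 0 to 79.9% over Jurkat wells with #634413 and from 0 to 74.9% with #634444, with counts in 15 and 17 of 18 wells. The inner start had counts in all 18 wells with both kits, and its share ran from 15 to 95.9% and from 2.23 to 90.4%. A375 had few TCF7 counts, with at least 10 in only 2 wells a kit. None of 54 and none of 41 fell on the full length start, which allows up to 6.6% and 8.6%. The inner start took 72.3% and 97.4%. The remaining 27.7% and 2.58% fell on the incomplete models, which cannot be placed on either form. With #634413 these models led by TPM at 57.4%, against 42.6% for the inner start. With #634444 the inner start led by TPM at 92.3%. Single Jurkat wells also had a full length share of 0.

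LEF1 differed between lines in the kind of transcript. Its full length start (chromosome 4, base 108167767) took 63.1% (62.3 to 64) and 68.2% (67.4 to 69) of Jurkat counts, against 17.3% (14.5 to 20.3) and 37.9% (33.2 to 42.8) in A375. Transcripts with no coding sequence in the annotation took 26.1% and 25.5% in Jurkat and 70.7% and 58.1% in A375. The inner start at 108166280 took 10.8% and 6.26% in Jurkat and 12% and 4.01% in A375. The form without the beta-catenin binding stretch opens there, but not all of these counts can be read as that form. In Jurkat LEF1-207, a model of this class annotated for nonsense-mediated decay, took 4.98% and 3.46%. LEF1-212, annotated likewise but opening at the full length start, took 12.2% and 9.95%. LEF1 counts in A375 lay mostly on transcripts with no coding sequence in the annotation. By TPM such transcripts led in both lines, at 42% and 48.4% in Jurkat and 79.9% and 76.7% in A375. The full length start then took 32.9% and 34.8% in Jurkat against 6.3% and 15.2% in A375, and the inner start 25.1% and 16.8% against 13.8% and 8.03%. The leading coding transcripts in Jurkat by counts were LEF1-202 (386 codons), with 2780 and 4031, and LEF1-201 (399 codons), with 2732 and 2664. They share their first 639 coding bases. Among all LEF1 transcripts, LEF1-207 led by TPM in Jurkat with #634413 and LEF1-211 with #634444.

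By counts the proximal start of RUNX1 led in both lines. That start (chromosome 21, base 34887112) took 61.9% (60.9 to 62.9) and 68.6% (67.5 to 69.7) of counts in Jurkat, and 61.2% (59 to 63.2) and 63.9% (61.4 to 66.2) in A375. The proximal shares of the lines therefore differed by less than those of single wells, which ran from 6.58 to 92.1% in Jurkat with #634413. The distal start at 35048899 took 23.4% and 24.9% in Jurkat and 34.1% and 28.9% in A375. Its class includes 1 transcript annotated for nonsense-mediated decay, which took 12.7% and 10.5% of RUNX1 counts in Jurkat. In A375 that transcript took 2.92% and 4.31%, so the lines differed in the make-up of the distal class. RUNX1-204, which opens at another start, 34889737, took 13.5% and 3.46% in Jurkat and 1.29% and 1.77% in A375. By TPM it led in Jurkat with #634413 at 44.2%, ahead of the proximal start at 31.2%. By TPM the proximal start led in the other groups, at 46.1% in Jurkat with #634444 and 47.3% and 49.4% in A375.

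By counts the leading RUNX3 start differed with the kit. In Jurkat the distal start (chromosome 1, base 24964571) took 43.7% (39.5 to 48) of 540 counts with #634413 but 9.35% (6.68 to 12.9) of 370 with #634444, in 6 and 5 wells. The proximal start at 24929868, RUNX3-201, took 30% and 59.9%, and RUNX3-205 with RUNX3-204, which have no annotated coding sequence, took 26.3% and 30.7%. By TPM RUNX3-205 led in Jurkat with both kits, at 73.4% and 81.4%, with the distal start at 16.8% and 3.73% and the proximal at 9.77% and 14.8%. In A375 the proximal start led the counts with both kits, at 73.8% (68.8 to 78.6) and 95.7% (92.9 to 97.7). By TPM in deep A375 wells it took 37.8%, under RUNX3-205 at 41.2%, with #634413, and 61.4% against 38.6% with #634444. The distal start had 0 of 309 A375 counts with #634444, which allows up to 1.19%.

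The coding transcript of the distal ETS1 start took a larger share in Jurkat. ETS1-202 (485 codons, first coding base 128573130 on chromosome 11) took 19.4% (18.5 to 20.3) and 29.6% (28.5 to 30.8) of Jurkat counts, in 12 and 13 of 18 wells. In A375 it took 0.85% (0.435 to 1.55) and 4.27% (2.96 to 5.89), in 1 and 4 of 21 wells. The shares were thus apart by more than their counting intervals with both kits, though a single well in A375 reached 92.5%. By TPM it took 14.7% and 21.7% in Jurkat and 0.188% and 1.84% in A375. The start site itself is shared with ETS1-205, a model with no coding sequence, which took 40.9% and 27.1% of TPM in A375. Joined by start site, the distal group held 15% and 21.9% of TPM in Jurkat and 41.1% and 28.9% in A375, the opposite direction. Among transcripts of the proximal start, the short ETS1-208 (225 codons, without 648 coding bases of ETS1-201) took 32.4% and 21.2% in Jurkat and 52.5% and 39.1% in A375. ETS1-201 (441 codons) took 27.4% and 21.3% against 7.22% and 14.1%. ETS1-204 (354 codons, without 261 bases) was level, at 18.8% and 26.6% in Jurkat and 18% and 22.7% in A375. These are shares of counts, whereas ETS1-201 led by TPM in Jurkat with both kits and ETS1-205 in A375.

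**Figure D4:**
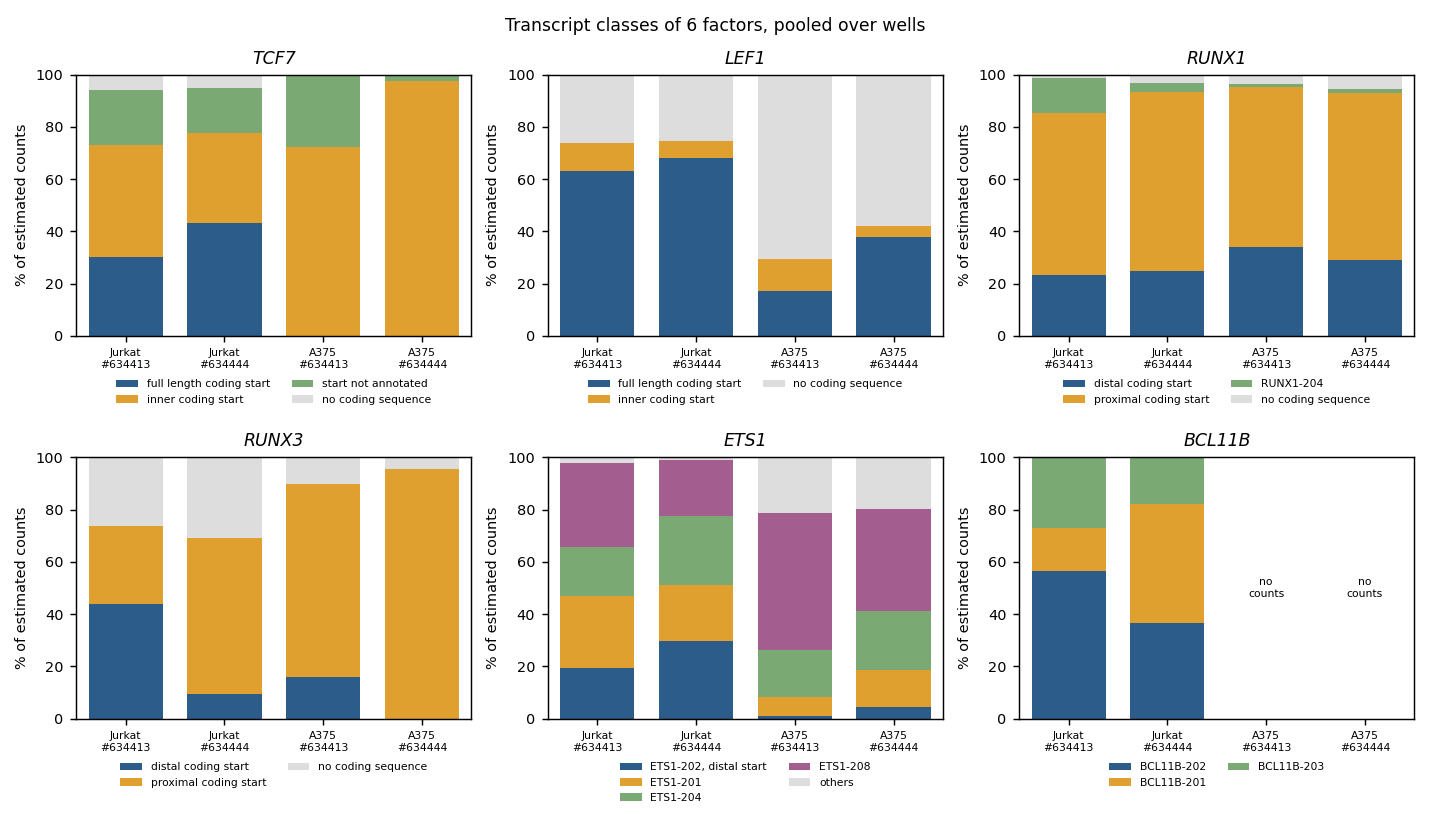
Share of each gene's pooled estimated counts by transcript class in each line and kit, for 6 of the factors. Bars are stacked to 100 percent. LEF1 in A375 is mostly on transcripts with no coding sequence, TCF7 in A375 has no full length counts, and the share of ETS1-202 is larger in Jurkat.

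BCL11B has a single coding start and 3 transcripts that differ inside. BCL11B-202 (894 codons) led with #634413 at 56.6% and in 11 of 17 wells with at least 10 counts, and BCL11B-201, which leaves out 213 of its coding bases, took 16.1%. With #634444 the order turned, at 36.6% and 45.5%, and BCL11B-201 led in 11 of 18 wells. BCL11B-203, without 582 bases, took 27.2% and 17.9%. By counts the leading transcript thus differed between the kits, whereas by TPM BCL11B-203, the shortest by coding length, led with both, at 54.1% and 41.1%.

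TAL1 and GATA3 each had a leading transcript by counts and by TPM. TAL1-202 took 83% and 92.5% of TAL1 counts in Jurkat and led in 13 of 17 and 17 of 18 wells, and TAL1-203, with no annotated coding sequence, took 12.8% and 3.67%. GATA3-201 took 72.7% and 58.5%, with GATA3-202 at 18.4% and 30.6% from the same coding start. MYB was spread over more models, 22 and 24 of 41 with counts. MYB-205 led by counts at 25.3% with #634413 and 47.1% with #634444, and transcripts annotated for nonsense-mediated decay took 26.1% and 22.1%. MYB-206 led by TPM with #634413, and MYB-205 with #634444. In A375 with #634413, 38 of 56 MYB counts were on MYB-207, an incomplete model, in 1 well. TOX has 1 transcript in the tables.

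When transcripts were instead joined by start site (within 500 bases of the next), the leading start group in Jurkat was the same with both kits for 8 of 10 members, of which TOX has a single start. RUNX3 and BCL11B were the exceptions.

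The promoter of TAL1 is shown because TAL1-202, which carried most of its counts, starts at its edge and because it holds more RUNX letters than any other member window. It covers the 250 bases before the start, chr1:47231716-47231965 on GRCh38.p14, minus strand, from the RefSeq promoter table. Capitals mark TGTGGT, the letters searched for RUNX.
TAL1 promoter: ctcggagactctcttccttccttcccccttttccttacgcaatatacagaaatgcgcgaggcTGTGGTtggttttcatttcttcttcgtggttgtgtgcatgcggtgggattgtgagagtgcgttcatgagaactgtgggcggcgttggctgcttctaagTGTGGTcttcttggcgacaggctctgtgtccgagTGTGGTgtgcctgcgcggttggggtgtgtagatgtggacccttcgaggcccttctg
The letters were searched on both strands of 16 windows of 300 bases from 8 members, ETS1 and TOX not among them. TGTGGT was in 4 of 16 windows at 7 sites, against 13.1% of 34943 windows in the table. The ETS letters CCGGAA were in 5 windows, against 17.2% of all windows. Either of the E-box words CAGCTG and CAGGTG was in 4, against 34.5%. The word AGATAA, searched for the GATA factors, was in 1, against 10.4%. The word CTTTGA, searched for TCF and LEF, was in 1, against 12.9%. The word AACNGTT, searched for MYB, was in 0, against 3.51%. No search word lies inside another. These are matches of letters only, and no binding was measured.

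Relatives and partners of the members were taken from named lists of 72 genes, of which 55 and 52 had enough counts. At least 4-fold higher in Jurkat were 12 and 14 of these, and at least 4-fold higher in A375 were 14 and 10, with a median log2 ratio of -0.03 and 0.28. As shares, 21.8% and 26.9% were higher in Jurkat, against 13.1% and 9.74% of all genes, and 25.5% and 19.2% were higher in A375, against 24.0% and 21.1%. The listed genes thus passed in Jurkat more often than genes at large and in A375 about as often, and unlike the members they passed in both directions. The lists, too, were chosen with earlier results of these data known, so the contrast with all genes is a description only.

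**Figure D5:**
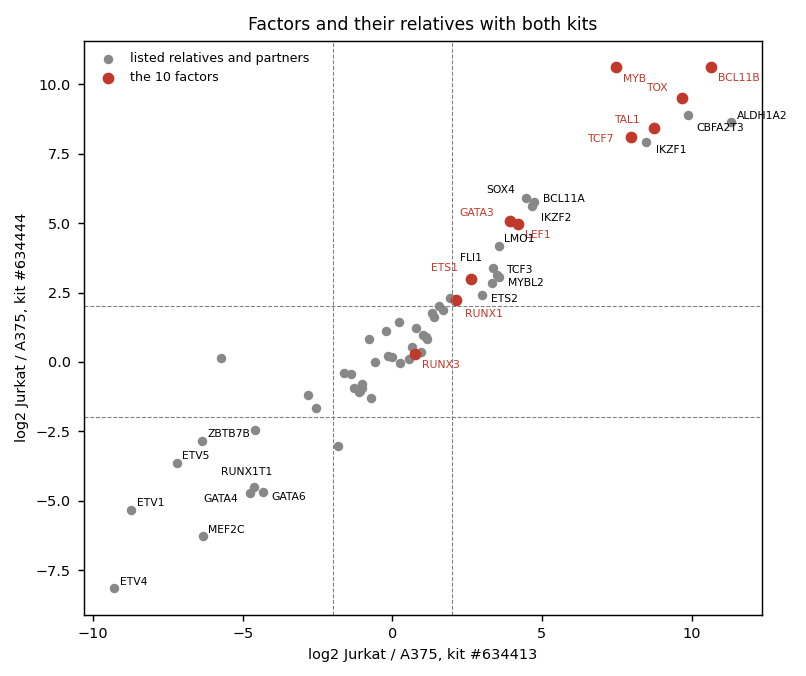
Log2 ratio of Jurkat to A375 in pooled CPM for relatives and partners of the factors, kit #634413 on the x axis and #634444 on the y axis. Red points are the 10 factors, grey points the listed relatives, and dashed lines mark 4-fold. The listed genes fall on both sides of 0, while the members lie above 0.

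Among the TCF and LEF relatives and beta-catenin partners, 0 of 9 and 0 of 8 were 4-fold higher in Jurkat. In A375 it was 2 and 1 (22.2% and 12.5%, against 24.0% and 21.1% of all genes). TCF7L2, the family member of epithelial tissues, was at 28.9 CPM in Jurkat and 103 in A375 with #634413, and at 12.8 and 105 with #634444. CTNNB1, which encodes beta-catenin, was at 63.3 against 155, and 96.2 against 184. The corepressor TLE3 was at 115 against 44, and 110 against 35.5. TLE4 lay the other way, at 31.6 against 68.9, and 48.6 against 103. PYGO2, a coactivator, was at 71 against 35, and 77.6 against 39.6.

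In the GATA family, 2 of 4 were 4-fold higher in A375 with both kits (50%, against 24.0% and 21.1% of all genes). These were GATA4 and GATA6, the endodermal and cardiac members. They had 4.47 and 3.37 CPM in A375 with #634413 and 0 and 0.0553 in Jurkat. GATA2, the stem cell member, was at 4.86 against 9.94 with #634413, and ZFPM1, a GATA cofactor, at 19.8 against 7.89. GATA1 had 0 CPM in Jurkat with #634413 and 0.0695 with #634444.

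Of the TAL1 complex and its bHLH partners, 3 of 10 were 4-fold higher in Jurkat with each kit (30%, against 13.1% and 9.74% of all genes). In A375 it was 1 and 0 of 10 (10% and 0%, against 24.0% and 21.1%). TCF3, which encodes the E proteins that pair with TAL1, was at 338 CPM against 29.9, and 230 against 26.6. TCF12, another E protein, was high in both lines at 365 against 164, and 357 against 203. CBFA2T3, a corepressor found in TAL1 complexes, was at 154 and 97.1 in Jurkat and had 0 counts in A375. LMO1, a leukaemia gene whose product bridges TAL1 to GATA factors, was at 4.53 and 3.68 CPM in Jurkat, in 5 and 7 of 18 wells. Lower in Jurkat were LMO4, at 22 against 35.8, and ID1, an inhibitor of bHLH factors, at 10.2 against 59.5 with #634413.

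Of 3 known TAL1 targets in leukaemia, 1 and 2 were 4-fold higher in Jurkat (33.3% and 66.7%, against 13.1% and 9.74% of all genes). ALDH1A2, a retinoic acid enzyme, was at 423 and 268 CPM against 0 and 0.675. ARID5B, which acts in the TAL1 circuit, was at 181 against 47.3, and 191 against 38.6, under the limit with #634413 and over it with #634444. TRIB2, a pseudokinase, lay the other way, at 19.1 against 59, and 34.5 against 45.6.

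RUNX1 and RUNX3 partners and kin followed no common direction. CBFB, the common non-DNA-binding subunit, was at 79.8 CPM against 68.6, and 122 against 44.9. RUNX2, the bone member, was at 12.6 against 14.1, and 16.5 against 14.3. RUNX1T1, known as a fusion partner of RUNX1 in myeloid leukaemia, was at 0.111 and 0.139 in Jurkat against 4.15 and 4.79 in A375.

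A relative of MYB and a relative of BCL11B were each at least 4-fold higher in Jurkat with both kits. MYBL2, a cell cycle gene, was at 245 CPM against 21, and 254 against 30.2, while MYBL1 was at 8.9 against 13.2, and 13.4 against 13.4. BCL11A, the fetal globin and B cell factor, was at 71.7 against 2.71, and 72.7 against 1.35. In the TOX family, TOX4 was at 53 against 33.4, and 59.6 against 41.5. TOX2 was at 0.166 against 8.72 with #634413 and at 8.41 against 7.7 with #634444, and TOX3 had at most 0.0695 CPM.

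ETS family members divided between the lines. FLI1, at 78.5 CPM against 7.67 and 110 against 10.6, and ETS2, at 65.2 against 8.23 and 80.9 against 15.2, were higher in Jurkat. ETV1, ETV4 and ETV5, which respond to ERK signalling in melanoma, were higher in A375. ETV4 was at 0.0553 against 104, and 0.347 against 99.4. ETV5 was at 0.718 against 106, and 9.03 against 113. ETV1 was at 0 against 69.8, and 1.74 against 69.3. ELF1, at 154 against 52.8 and 184 against 45.4, and ETV6, at 84.1 against 26 and 122 against 33.6, leaned to Jurkat, and ELF1 passed 4-fold with #634444.

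Of the other T lineage and T cell leukaemia factors, 4 of 11 and 4 of 9 were higher in Jurkat (36.4% and 44.4%, against 13.1% and 9.74% of all genes). In A375, 4 and 3 were higher (36.4% and 33.3%, against 24.0% and 21.1%). Of the 4 with #634413, 1 had its 290 A375 counts in 1 well and too few counts to enter with #634444. IKZF1, the Ikaros gene of lymphoid cells, was at 257 CPM against 0.718, and 279 against 1.16. IKZF2 was at 224 against 8.89, and 333 against 6.82. SOX4 was at 426 against 19.2, and 587 against 9.79. SATB1, a chromatin organiser of thymocytes, was at 338 against 34, and 310 against 43.2. ZEB1, a repressor active in T cells and in mesenchymal tumours, was at 155 against 70.8, and 142 against 77.1. MEF2C, often high in immature T cell leukaemia, had 0 in Jurkat and 13.4 and 16.1 CPM in A375. ZBTB7B, the CD4 lineage factor, was at 0 against 13.5, and 2.5 against 17.9.

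Genes for long non-coding RNAs named after a member were counted by strand, as both kits keep it. LEF1-AS1, whose span overlaps the start of LEF1 on the other strand, had 355 counts (19.6 CPM) in 10 of 18 Jurkat wells with #634413 and 160 (11.1 CPM) in 10 with #634444, against 3 and 37 counts in A375. TOX-DT, which lies beside the TOX start, had 67 counts in 4 Jurkat wells and 125 in 12, and 0 in A375 with either kit. GATA3-AS1 had 2 counts in Jurkat with #634444, RUNX3-AS1 had 3 in A375 with that kit, and MYB-AS1 and ETS1-AS1 had 0 in all groups.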

How the data were processed

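The authors deposited 1 Kallisto table per cell, with estimated counts (expected counts) and TPM for each Ensembl 91 transcript and spike. Per the labels and methods, reads were trimmed with cutadapt and pseudoaligned in stranded mode, and the submitters' processing notes name kallisto 0.43.1 and STAR 2.5.3. These deposited values were summed to genes with GENCODE v44 names (195850 of 200206 Ensembl transcripts matched, and the 4356 others, 4.59% of counts, stayed in the totals). Spikes were left out, and doublets were not called, as the cells were sorted singly. Whether each well held 1 cell was not tested. Pooled CPM, exact Poisson intervals of counts and exact Clopper-Pearson intervals of shares were computed with Python 3.11.15 and SciPy 1.17.1. No count model was fitted, since each line is 1 sample. A gene entered a ratio with at least 50 counts in 1 line, a line under 3 counts was set to 3 counts, and a call was 4-fold. The scripts were tested on simulated data. The 10 members, the lists and the rule for named genes (up to 5 past 4-fold with both kits and the 3 highest of each list in each line) were chosen with earlier results of these data known. Alternatives are given in the closing section. Identity of proteins was not run. A listed gene is not reported here and was left out of the list counts.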

Additional observations from a re-analysis of the deposited data

How the results depend on the processing

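Of the 59 alternatives tried over 9 results, 51 stayed within 1.5 times the reported count and 8 moved. These results are counts of members, which have no direction, so a reversal could not occur in them. The count of members higher in A375 with #634444 went from 0 to 1 with the mean over wells of CPM and to 1 with the mean of TPM, the member being RUNX3 at ratios of 0.0768 and 0.0908, set by the shallow wells named above. The count of members in at least 90% of A375 wells went with #634413 from 0 to 1 both in thinned and in deep wells, and with #634444 from 1 to 0 at 5 counts a well, 0 at 10 counts, 2 in thinned wells and 3 in deep wells. Those over Jurkat wells ran from 8 to 9 and from 9 to 10. The mean over wells of CPM moved the median log2 ratio of all genes from -0.16 to 0.32 and 0.27, beside which RUNX1 stayed past the limit at 4.17 to 7.63 and 4.15 to 5.8 over the alternatives. Leaving out each well in turn, an alternative chosen after seeing the data, kept 9 to 9 members higher in Jurkat with both kits and changed no call. The leading start was the same with both kits for 7 members when starts were joined within 100 bases, 8 by TPM (LEF1 and RUNX1 then differed) and 9 by the median over wells. No paired analysis was possible because each well is its own sample, the labels pair no wells between groups, and the results come from no test. Depth limits what can be said of A375, where 9 wells lie under the depth limit, and few counts set the ratios of TCF7, GATA3, TAL1 and MYB.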
